A study of Mus musculus with 3 samples.

Results

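The cytosolic ribosomal proteins are the protein building blocks of the ribosomes that translate nuclear-encoded mRNAs. Their genes were chosen by symbol alone. The rule took symbols that start with Rpl or Rps followed by a digit, together with Rplp0, Rplp1, Rplp2 and Rpsa, and left out the S6 kinases (Rps6k), Rps19bp1 and symbols marked as pseudogenes (-ps). It found 87 of the 24346 gene symbols in the tables, 53 of the large subunit and 34 of the small subunit. Of the 87, 77 encode the standard set and 10 are paralogs or retrogenes of another member.

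RNA was measured in 3 myeloid populations taken from the colons of healthy BALB/c mice. They were Gr-1+ CD11b+ cells, which the labels call neutrophils and monocytes together, CD64- dendritic cells (DC) and CD64+ macrophages. Gr-1 and CD11b are surface antigens of neutrophils and monocytes, and CD64 is the Fc gamma receptor encoded by Fcgr1, which separates macrophages from DC in the gut. Each population had 1 library, so no difference has a replicate check, no test was possible, and no error can be given. The sources used here give neither the age of the mice nor whether several were pooled.

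A ribosome has a small subunit, which reads the codons of the mRNA, and a large subunit, which joins amino acids into protein. The proteins are made in matching amounts and assembled on ribosomal RNA in the nucleolus, and free copies are degraded. Mammalian ribosomal protein mRNAs begin at their 5' end with an uninterrupted run of pyrimidines, the terminal oligopyrimidine (TOP) tract, through which the kinase mTOR and the RNA-binding protein LARP1 set their translation and stability. Neutrophils complete most of their protein synthesis as precursors in the bone marrow, whereas tissue macrophages and DC are longer-lived and keep translating.

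The sequence around the annotated transcription start is shown for 9 members on which the results turn or which differ in the run of pyrimidines; they were picked after their values were seen. The windows were read from RefSeq's promoter sequences of GRCm38.p6, in which 66 of the 87 members had an entry. Each line runs 5' to 3' on the gene's strand from 60 bases before the annotated start to 20 bases after it, and capitals mark the longest unbroken run of C and T that comes within 10 bases of that start.
Rps9, chr7:3703981-3704060, plus strand: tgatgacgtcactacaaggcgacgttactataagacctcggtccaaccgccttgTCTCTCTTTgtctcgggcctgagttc
Rps18, chr17:33955646-33955725, minus strand: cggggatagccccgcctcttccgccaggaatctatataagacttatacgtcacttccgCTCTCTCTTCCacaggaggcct
Rps27, chr3:90213629-90213708, minus strand: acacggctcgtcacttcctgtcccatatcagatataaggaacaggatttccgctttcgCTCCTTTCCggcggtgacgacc
Rpl35, chr2:39005112-39005191, minus strand: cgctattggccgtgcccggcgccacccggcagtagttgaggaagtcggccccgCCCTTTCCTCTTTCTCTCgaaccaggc
Rpl15, chr14:18270967-18271046, minus strand: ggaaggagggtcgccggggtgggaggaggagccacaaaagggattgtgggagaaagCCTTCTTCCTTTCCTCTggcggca
Rplp2, chr7:141447591-141447670, plus strand: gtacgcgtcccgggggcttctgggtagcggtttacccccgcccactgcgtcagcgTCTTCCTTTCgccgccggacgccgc
Rps27l, chr9:66946026-66946105, plus strand: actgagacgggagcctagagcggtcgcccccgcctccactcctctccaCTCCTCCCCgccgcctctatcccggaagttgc
Rpl22l1, chr3:28805448-28805527, plus strand: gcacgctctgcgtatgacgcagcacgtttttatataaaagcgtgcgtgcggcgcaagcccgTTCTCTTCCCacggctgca
Rpl7l1, chr17:46782637-46782716, minus strand: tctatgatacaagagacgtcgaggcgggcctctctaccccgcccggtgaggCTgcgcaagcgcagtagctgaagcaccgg

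The run was 18 bases long in Rpl35, 17 in Rpl15, 11 in Rps18, 10 in Rplp2 and Rpl22l1, 9 in Rps9, Rps27 and Rps27l, and 2 in Rpl7l1. A run of 7 or more lay at the start of 34 of the 66 members with an entry (51.5%), against 23.1% of the 17492 protein-coding genes with one. The median run was 7 bases in the members and 5 in all these genes. Annotated starts can lie a few bases off the start the cell uses, so the runs describe the reference sequence and were not measured in these cells.

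Values are FPKM as the authors deposited them, a fragment count divided by transcript length and by library size, and differences are between values of log2(FPKM + 1). A log2 difference of 1 is a doubling. From the size of the steps between low values, 1 fragment on a transcript of 1 kb was worth 0.400 FPKM in the Gr-1+ CD11b+ library, 0.112 in DC and 0.148 in macrophages. The DC library was thus read 3.59 times and the macrophage library 2.71 times as deeply as the Gr-1+ CD11b+ library. A level for genes that these cells should not express was taken as the 95th percentile of 1452 olfactory and vomeronasal receptor genes, and it was 9.69 FPKM in the Gr-1+ CD11b+ library, 0.611 in DC and 3.24 in macrophages. The 10 highest genes took 33.5%, 14.97% and 22.2% of the FPKM sum of the Gr-1+ CD11b+ library, DC and macrophages. The 14 neutrophil markers summed to 187261 FPKM in the Gr-1+ CD11b+ library, 2519 in DC and 6362 in macrophages, and the 14 macrophage markers to 18926, 6545 and 65058 FPKM. Fcgr1, which encodes CD64, had 12.3, 9.23 and 113 FPKM, but the macrophage marker Cd14 was highest in the Gr-1+ CD11b+ library. The 14 DC markers summed to 116, 1619 and 501 FPKM, and 4 of them passed the size rule given later as higher in DC against macrophages. Ccr7 alone made up 1004 of the 1619 FPKM in DC, and 3 of the 14, Itgax, Batf3 and Xcr1, were lower in DC than in macrophages. The 14 B and plasma cell markers, all above 0 in every library, summed to 695 FPKM in the Gr-1+ CD11b+ library, 24380 in DC and 1455 in macrophages, led by Jchain, the joining chain of secreted antibodies, at 352, 18847 and 982 FPKM. The 11 T and NK cell markers summed to 60.6, 314 and 118 FPKM and the 12 epithelial markers to 1855, 876 and 538 FPKM.

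The ribosomal protein genes stood lowest in the Gr-1+ CD11b+ library and highest in DC. Together they took 2.19% of the FPKM sum in the Gr-1+ CD11b+ library, 12.3% in DC and 6.12% in macrophages, or 18879, 82317 and 53553 FPKM. The median over the 77 standard genes was 184 FPKM in the Gr-1+ CD11b+ library (quartiles 117 and 265), 860.5 in DC (494 and 1159.95) and 525 in macrophages (329.8 and 826). In bulk RNA, a smaller share of cells with high ribosomal protein mRNA and less of it in each cell cannot be told apart. Plasma cells hold many ribosomes, and the DC library, which had the highest ribosomal share, also had the highest B and plasma cell markers; their part in the result was not tested.

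The order DC above macrophages above the Gr-1+ CD11b+ library held for 79 of the 87 genes. DC had the highest level of 80 genes, and the Gr-1+ CD11b+ library the lowest of 82. The 8 genes that broke the order were Rpl10, Rpl30, Rps27, Rps4l and the 4 scarce paralogs Rpl3l, Rpl10l, Rpl39l and Rpl37rt. Above the level of silent genes lay 79 members in the Gr-1+ CD11b+ library, 83 in DC and 83 in macrophages, and 79 in all 3 libraries. Rps27, Rpl26, Rps15a and Rps4l were under it in the Gr-1+ CD11b+ library only, and the 4 scarce paralogs in every library.

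**Figure D1:**
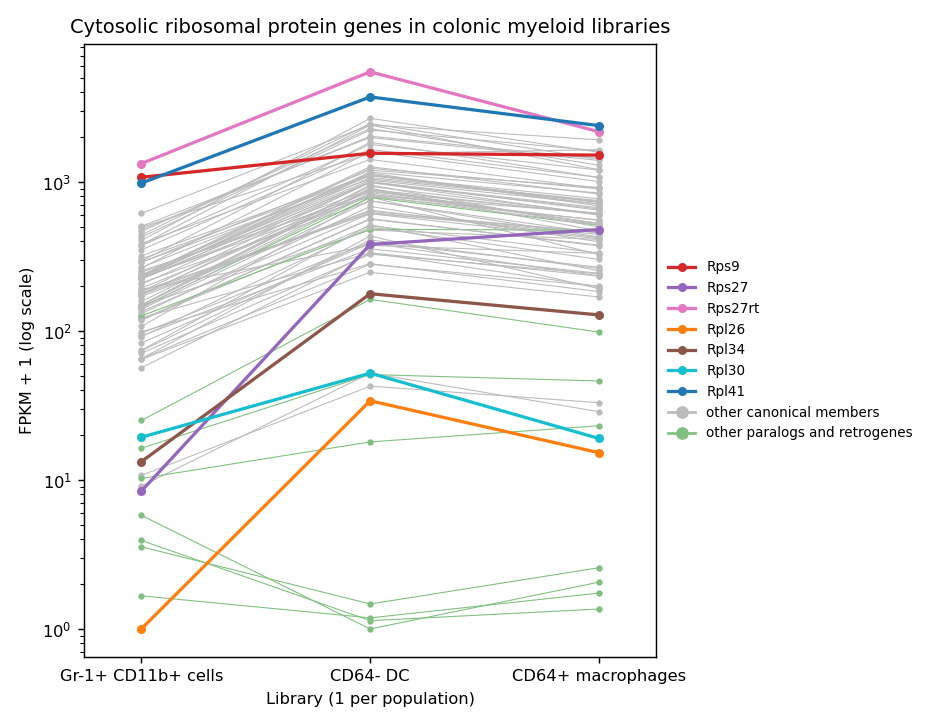
FPKM + 1 of the 87 cytosolic ribosomal protein genes (log y axis) in the 3 libraries (x axis), with 1 line per gene; 7 genes are coloured and named, the other standard (canonical) genes are grey and the other paralogs and retrogenes green. Most lines are lowest in the Gr-1+ CD11b+ library and peak in DC, while Rps9 is nearly level and Rpl26 and Rps27 start far below the grey lines.

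The most abundant ribosomal mRNAs were much the same in the 3 populations. Of the 10 highest members of each library, 7 were shared by all 3, among them Rps27rt, Rpl41, Rps29, Rpl13, Rps28 and Rps14. Rps27rt, an intronless copy of Rps27, had 1323 FPKM in the Gr-1+ CD11b+ library, 5456 in DC and 2164 in macrophages. Rpl41, the smallest ribosomal protein, which bridges the 2 subunits, had 978, 3702 and 2378 FPKM. Levels of such short transcripts depend on the length correction, since only the part of a transcript longer than a fragment counts; the low values stepped in whole fragments when 200 nt were taken off each length.

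Within the small subunit the summed level was 9446 FPKM in the Gr-1+ CD11b+ library, 40515 in DC and 25968 in macrophages. Rps18, which sits in the head of the subunit, had 402 FPKM in the Gr-1+ CD11b+ library, 2661 in DC and 1576 in macrophages. Rps29, a small zinc-binding protein, had 612.5, 2402 and 1907 FPKM, and Rps28 had 424, 2220 and 1609 FPKM. All 3 had their lowest level in the Gr-1+ CD11b+ library and their highest in DC.

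Rps19, which is mutated in the human red cell disorder Diamond-Blackfan anaemia, had 376 FPKM in the Gr-1+ CD11b+ library, 2401 in DC and 1203 in macrophages. Rps14, whose loss marks a human myelodysplastic syndrome, had 501, 1978 and 1388 FPKM. Rps6, the target of the S6 kinases, was at 117, 564.4 and 370 FPKM. Rpsa, a small-subunit protein also known as a laminin receptor, was at 148, 903 and 466 FPKM. These genes kept the order of the summed level, and DC exceeded macrophages by 0.996 in Rps19 and 0.95 in Rpsa on the log2 scale.

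Within the large subunit the summed level was 9433 FPKM in the Gr-1+ CD11b+ library, 41802 in DC and 27584 in macrophages. The small and the large subunit therefore had close to equal sums in each library. Rpl13 had 438 FPKM in the Gr-1+ CD11b+ library, 2455 in DC and 1417 in macrophages. Rpl5 and Rpl11, which carry 5S ribosomal RNA into the large subunit and bind the p53 inhibitor Mdm2 when assembly fails, had 55.5, 333 and 197 FPKM and 179, 632 and 455 FPKM. Rpl10, which joins late in assembly, had 493, 1541 and 1639 FPKM, and so was the 1 standard gene of the large subunit that was not higher in DC than in macrophages.

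The P stalk of the large subunit, which calls in the elongation factors, is built on Rplp0 with dimers of Rplp1 and Rplp2. Rplp0 had 287 FPKM in the Gr-1+ CD11b+ library, 1195 in DC and 913 in macrophages. Rplp1 had 235, 1259 and 826 FPKM, and Rplp2 had 221, 995 and 668 FPKM. All 3 were lowest in the Gr-1+ CD11b+ library and highest in DC, like most of the subunit.

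The Gr-1+ CD11b+ library was set against DC to ask how far the whole set differed between neutrophils with monocytes and dendritic cells. A gene counted as lower or higher by size when its log2 difference reached 2 and the higher library had at least 10 FPKM. By this size rule 54 members were lower in the Gr-1+ CD11b+ library and 0 were higher. The background was 6.28% lower and 3.65% higher among the 17329 genes that reached 1 FPKM in any library. Of the 87 members 86 reached that level, and Rpl10l did so through the Gr-1+ CD11b+ library alone. So did 3283 of the 17329 genes, which lie above 0 and cannot count as lower in that library. They raise the median of all genes and reduce the share called lower, here and against macrophages. The 54 comprised 24 small-subunit and 30 large-subunit genes, and 51 of them belonged to the standard set.

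The median difference of the Gr-1+ CD11b+ library minus DC was -2.17 over the members and 0.01 over all genes compared. The middle of the members was narrow, with quartiles of -2.44 and -1.87, and the SD was 1.003 against 1.58 for all genes. Most genes compared stand at far lower levels than the members, and no SD was taken over genes of like level. The contrast in SD is therefore not read as a trait of the members. The small subunit had a median of -2.24, the large subunit -2.13 and the P stalk -2.17. Below 0 lay 83 members, and only Rpl3l, Rpl10l and Rpl37rt, all under the level of silent genes, lay above it. Among the 971 other genes with a mean of 100 FPKM or more, 11.2% were lower by the rule and the median was -0.27.

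Because so many members lay near the limit, the count depends on it more than the median does. Rpl23 (-2.03), Rps27rt (-2.04) and Rplp0 (-2.05) were just inside the limit of 2. Rpl22 (-1.99), Rps14 (-1.98) and Rps29 (-1.97) were just outside it. The largest differences outside the copied genes taken up later were -2.89 for Rpl12 and -2.80 for Rps24. Rpl12, which lies at the base of the stalk, had 106 FPKM in the Gr-1+ CD11b+ library, 790.1 in DC and 323 in macrophages. Rps24 had 72.9, 514 and 251 FPKM.

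The Gr-1+ CD11b+ library was also set against macrophages, a comparison that shares the Gr-1+ CD11b+ library with the one above. The median was -1.60 over the members and 0.10 over all genes, with quartiles of -1.73 and -1.35, and 82 members lay below 0. By the size rule 3 members, Rps27 (-5.83), Rpl26 (-3.92) and Rpl34 (-3.27), were lower and 0 were higher, on a background of 3.41% lower and 1.41% higher. As deposited, this is a share of members near the background of all genes, even though most members differed in the same direction. Of the 971 other genes with a mean of 100 FPKM or more, 13.5% were lower by the rule, a larger share than in the members. Their median was -0.71. Nearest outside the limit were Rpl22l1 and Rps18 (both -1.97) and Rps4x (-1.95). The small subunit had a median of -1.63 and the large subunit -1.55.

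DC and macrophages, which share a library each with the comparisons above, differed less. The median of DC minus macrophages was 0.59 over the members and -0.05 over all genes, with quartiles of 0.48 and 0.73, and 80 members lay above 0. By the size rule 0 members were higher and 0 lower, on a background of 1.53% higher and 2.31% lower. The 3283 genes that reached 1 FPKM through the Gr-1+ CD11b+ library alone cannot pass the rule here, which reduces both background shares. Of the 971 other genes with a mean of 100 FPKM or more, 15.4% were lower in DC and the median was -0.42. The SD of the members was 0.38 against 1.03 for all genes, with the same limit of unlike levels as above. The small subunit had a median of 0.60 and the large subunit 0.59.

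The members with the largest excess in DC over macrophages were Rpl30 (1.45), Rps27rt (1.33), Rpl12 (1.29), Rpl13a (1.17) and Rpl26 (1.16). Rpl13a, known in human monocytes for leaving the ribosome after interferon gamma to silence inflammatory mRNAs, had 64.1 FPKM in the Gr-1+ CD11b+ library, 431 in DC and 191 in macrophages. The B and plasma cell markers were higher in the DC library as well, all 14 of them by the size rule against macrophages, and their part in these differences was not tested.

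**Figure D2:**
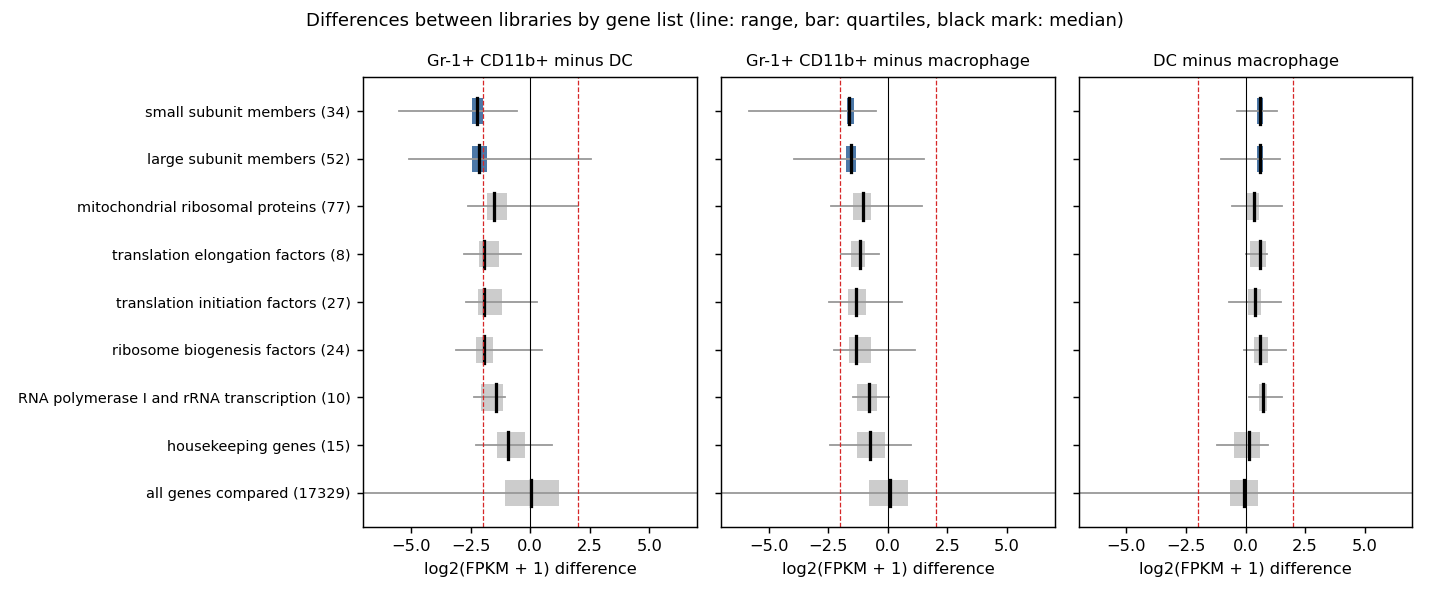
Differences of log2(FPKM + 1) (x axis) for each pair of libraries, with 1 row per gene list and the number of genes compared in brackets; the line is the range, which runs past the axis for all genes, the bar spans the quartiles, the black mark is the median and the dashed lines mark the limit of 2. Both subunits have short bars, with medians of -2.24 and -2.13 in the first pair, -1.63 and -1.55 in the second and 0.60 and 0.59 in the third, and all genes have medians of 0.01, 0.10 and -0.05.

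FPKM is a share of a library, so the whole scale of one library can shift against another, and 3 other scalings were set beside the deposited one. Relative to the median of all genes the members differed by -2.19 between the Gr-1+ CD11b+ library and DC as deposited, by -2.27 with libraries scaled to equal FPKM sums, by -2.03 with median ratios and by -2.03 with equal 75th percentiles. Between the Gr-1+ CD11b+ library and macrophages these values were -1.70, -1.69, -1.55 and -1.55. Between DC and macrophages they were 0.64, 0.78, 0.57 and 0.58. A scaling multiplies a whole library by a single factor, so the members and all genes shift nearly alike and these differences could hardly change. They are no check on the direction of the set against all genes.

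The unadjusted size of the difference did change. Scaling by median ratios moved the median of all genes in the Gr-1+ CD11b+ library minus DC to 0.63, and the members' median to -1.40. The number of members lower by the size rule was 54 as deposited, 76 with equal sums and 5 with either median ratios or 75th percentiles, against 6.28%, 10.4%, 2.04% and 2.10% of all genes. Of 15 housekeeping genes the median difference in that comparison was -0.94 as deposited and -0.17 with median ratios. The number of members lower against macrophages was 3 under every scaling. The share of all genes lower there was 3.41% as deposited, 3.25% with equal sums, 1.44% with median ratios and 1.39% with 75th percentiles.

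**Figure D3:**
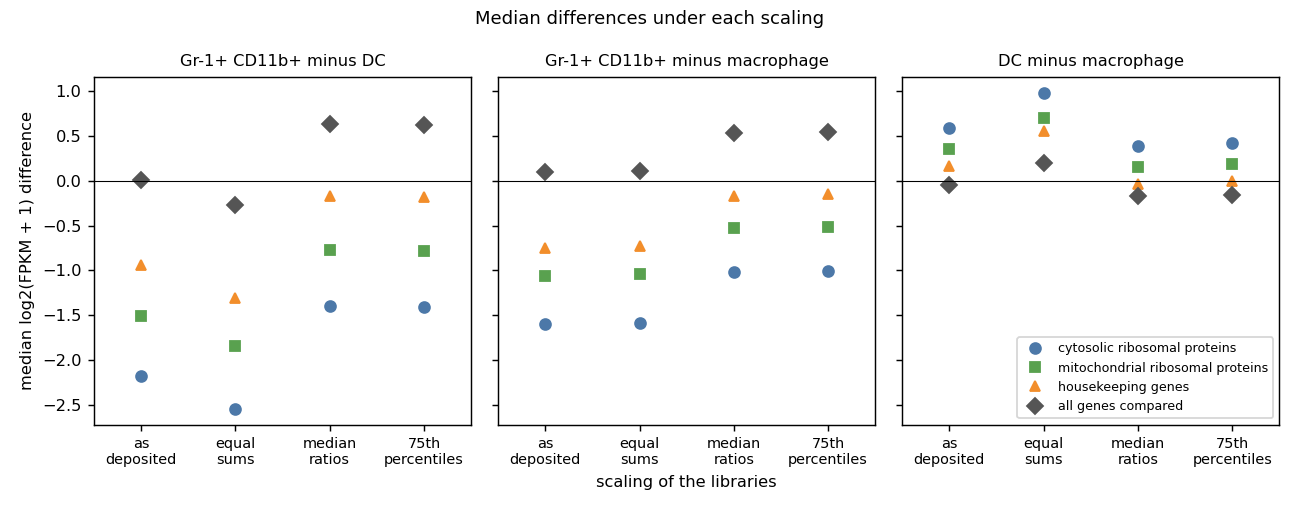
Median log2 difference of the ribosomal protein genes, the mitochondrial ribosomal protein genes, the housekeeping genes and all genes under 4 scalings, for each pair of libraries. In the Gr-1+ CD11b+ library minus DC the members' median moves between -2.54 and -1.40. It stays about 2 below that of all genes, since a scaling shifts both nearly alike.

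Most members moved together. Within 0.5 of the members' median difference lay 66 of 86 members in the Gr-1+ CD11b+ library minus DC, 74 in the Gr-1+ CD11b+ library minus macrophages and 73 in DC minus macrophages. A departure was counted where a member stood 1 or more from that median with at least 10 FPKM in the higher library. There were 6, 5 and 0 such members in the 3 comparisons, while 23.7%, 16.2% and 12.6% of all genes stood as far from the same medians. Since the median was taken from the members themselves, nothing is read from that contrast.

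Rps9, a small-subunit protein that bears on decoding accuracy in yeast, was the abundant member that departed most towards the Gr-1+ CD11b+ library. It had 1069.6 FPKM in the Gr-1+ CD11b+ library, 1550.5 in DC and 1507 in macrophages, so that its level was nearly even across the libraries. The differences were -0.54 against DC and -0.49 against macrophages, which is 1.64 and 1.11 above the members' medians. It was among the 10 highest members in the Gr-1+ CD11b+ library and macrophages but not in DC. The values rest on about 1668 fragments in the Gr-1+ CD11b+ library, 8670 in DC and 6363 in macrophages, so counting error is small beside them.

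Rps9 lies at chr7:3703993-3706897 on the plus strand of GRCm38. Pirb, an inhibitory receptor of myeloid cells, starts 4512 bases past its end and had 369 FPKM in the Gr-1+ CD11b+ library, 74.4 in DC and 324 in macrophages. Mboat7, an acyltransferase of phospholipids, had 90.8, 19.3 and 28.8 FPKM. Tsen34, a subunit of the tRNA splicing endonuclease, lies nearer to Rps9 on the same side as Mboat7 and had 18.4, 30.7 and 28.1 FPKM. Pirb and Mboat7 were thus highest in the Gr-1+ CD11b+ library and Tsen34 was lowest there. Of the 50-base windows (50-mers) in the coding sequence of Rps9, 43.3% occur in a transcript of another gene, and in 1 such gene only. Whether reads of neighbouring genes add to the level of Rps9 was not tested.

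Rpl7a, a large-subunit protein, had 189 FPKM in the Gr-1+ CD11b+ library, 373 in DC and 329.8 in macrophages, and stood 1.19 above the members' median against DC. Its coding sequence shares 93.4% of its 50-mers with 123 other genes, of which 121 are pseudogenes. Rps4l, a copy of Rps4x annotated as a transcribed pseudogene, had 9.22, 16.97 and 22.05 FPKM and stood 1.36 above the same median. Its level in the Gr-1+ CD11b+ library is under that of silent genes there. Rpl30 had 18.3 FPKM in the Gr-1+ CD11b+ library, 51.0 in DC and 18.0 in macrophages, and so stood 1.63 above the members' median against macrophages. That value rests on about 17 fragments in the Gr-1+ CD11b+ library and 45 in macrophages.

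The 3 members that stood below the rest all have near-identical copies elsewhere in the genome. Rps27, a zinc-binding protein of the small subunit, had 7.41 FPKM in the Gr-1+ CD11b+ library, 378 in DC and 477 in macrophages, with differences of -5.50 and -5.83. Rpl34 had 12.3, 176 and 127 FPKM, with differences of -3.74 and -3.27. Rpl26, which lies at the exit of the peptide tunnel, was listed at 0.00238 FPKM in the Gr-1+ CD11b+ library, under the worth of 1 fragment, with 32.9 in DC and 14.2 in macrophages. All 3 had at most 12.3 FPKM in the Gr-1+ CD11b+ library, where the standard genes had a lower quartile of 117 FPKM.

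When reads match several genes equally, the counting can place them on either, so levels of the single copies are uncertain. The coding 50-mers shared with another gene made up 100% of Rps27, 71.5% of Rpl34 and 87.4% of Rpl26. Rps27 and Rps27rt added together had 1331 FPKM in the Gr-1+ CD11b+ library, 5835 in DC and 2641 in macrophages. The difference of the sum was -2.13 against DC, which is 0.04 from the members' median, and -0.99 against macrophages, which is 0.61 from it. Rpl34 added to its copy Rpl34-ps1 had 398, 1563 and 1143 FPKM, with differences of -1.97 and -1.52, which are 0.20 and 0.08 from the members' medians. The departures of Rps27 and Rpl34 against DC were present in the single copies and not in the sums. However, Rps27rt made up 1323 of the 1331 FPKM and Rpl34-ps1 386 of the 398 FPKM in the Gr-1+ CD11b+ library. The sums thus mostly repeat the values of these copies and cannot show whether Rps27 or Rpl34 itself was lower. Read placement was not tested. No copy of Rpl26 was summed here.

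Shared sequence was common in the whole set. In 29 members every coding 50-mer occurs in a transcript of another gene, in 70 members over 50% do, and the median is 90.3%. Rpl3l and Rpl39l are among those that share none. Rps3, a protein at the mRNA entry of the small subunit that shares 8.05%, had 134 FPKM in the Gr-1+ CD11b+ library, 608 in DC and 413 in macrophages, with differences of -2.18 and -1.62. Rpl8, which shares 8.69%, had 156, 883 and 521 FPKM, with -2.49 and -1.73. The differences of both genes were within 0.4 of the members' medians. Across the 86 members, which share their 3 libraries, the difference and the share of shared 50-mers had Spearman correlations of -0.01 for the Gr-1+ CD11b+ library minus DC, 0.00 against macrophages and 0.06 for DC minus macrophages. The Pearson correlations were -0.38, -0.29 and 0.38, so the rank and linear measures differ.

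**Figure D4:**
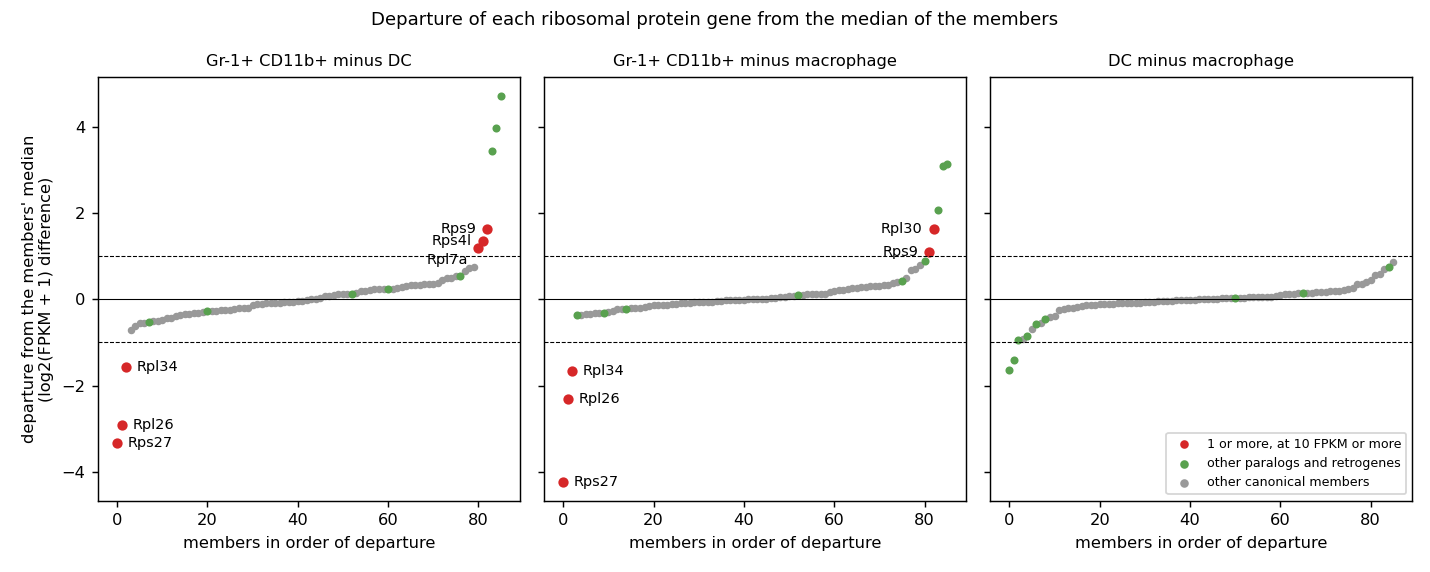
Departure of each of the 86 members compared from the members' median difference (y axis, log2 scale), in order of departure (x axis), for each pair of libraries; dashed lines mark 1 on either side, red points are departures at 10 FPKM or more and green points other paralogs and retrogenes. Rps27, Rpl26 and Rpl34 lie lowest in both comparisons of the Gr-1+ CD11b+ library, Rps9 lies above 1 in both, and DC minus macrophages has no red point.

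Ribosomal protein paralogs can replace the standard protein in some tissues, and their share of each pair is given here. For Rps27 the pair is complicated by Rps27rt, whose coding sequence is the same at all 255 of 255 bases, while Rps27l, which p53 is known to induce, is the same at 194 of 255 (76.1%). The first 90 coding bases show how the 3 copies compare. They were read 5' to 3' from GENCODE M21 transcripts on GRCm38, and capitals mark bases that differ from Rps27.
Rps27, chr3:90212522-90213651, minus strand: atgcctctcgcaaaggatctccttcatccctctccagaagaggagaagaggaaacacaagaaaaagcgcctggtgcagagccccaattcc
Rps27rt, chr9:114982366-114982739, minus strand: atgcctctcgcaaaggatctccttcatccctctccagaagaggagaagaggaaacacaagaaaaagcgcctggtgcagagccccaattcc
Rps27l, chr9:66946086-66949516, plus strand: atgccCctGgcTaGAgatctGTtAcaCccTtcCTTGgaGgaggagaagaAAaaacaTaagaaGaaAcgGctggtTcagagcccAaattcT

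Rps27l differs from Rps27 at 24 of these 90 bases. Rps27l had 125 FPKM in the Gr-1+ CD11b+ library, 478 in DC and 472 in macrophages, and its differences were -1.93 against DC and -1.91 against macrophages. Rps27rt made up 99.4% of the sum of Rps27rt and Rps27 in the Gr-1+ CD11b+ library, 93.5% in DC and 82.0% in macrophages. The pair cannot be told apart in its coding sequence, so the split between the copies is uncertain. The share of Rps27l in the sum of Rps27l and Rps27 (94.4%, 55.8% and 49.7%) carries the same limit.

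Rpl22l1, the paralog of Rpl22, both known for roles in lymphocyte development in mice, was the more abundant of its pair in every library. It had 24.0 FPKM in the Gr-1+ CD11b+ library, 161 in DC and 97.1 in macrophages, where Rpl22 had 9.71, 41.5 and 31.9 FPKM. It made up 71.2%, 79.5% and 75.3% of the pair, a narrow range next to the differences in level. The coding sequences are the same at 259 bases, which is 66.9% of the 387 bases of Rpl22, the longer of the pair. In transcripts of other genes occur 84.4% of the coding 50-mers of Rpl22l1 and 30.8% of those of Rpl22, so these shares also depend on read placement. Rpl22 rests on about 45 fragments in the Gr-1+ CD11b+ library.

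Rpl36al, an intronless copy of Rpl36a, also exceeded its source gene. Rpl36al had 143 FPKM in the Gr-1+ CD11b+ library, 784 in DC and 509 in macrophages, and Rpl36a had 81.8, 386 and 232 FPKM. The copy made up 63.7%, 67.0% and 68.7% of the pair, with coding sequences the same at 87.9% of their 321 bases. Rpl7l1, a ribosome assembly factor related to Rpl7, had 15.3, 49.9 and 45.1 FPKM, or 5.47%, 4.34% and 5.54% of its pair. In both pairs the split varied little between the libraries. Of the coding 50-mers of Rpl36a and of Rpl36al, 100% occur in a transcript of another gene, so the split of that pair is uncertain.

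The remaining paralogs were scarce. Rps4l made up 6.11% of its pair with Rps4x in the Gr-1+ CD11b+ library, 2.02% in DC and 3.86% in macrophages, where Rps4x had 142, 822 and 549 FPKM. Rpl3l, which replaces Rpl3 in heart and skeletal muscle, had 4.78 FPKM in the Gr-1+ CD11b+ library, was listed at 0 in DC and had 1.06 in macrophages. Rpl10l and Rpl39l, both known from testis, had 2.92, 0.136 and 0.360 FPKM and 0.667, 0.186 and 0.740 FPKM. The retrocopy Rpl37rt had 2.56, 0.470 and 1.57 FPKM. Each of the last 4 was under the level of silent genes in all 3 libraries, so no expression was detectable at this depth.

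**Figure D5:**
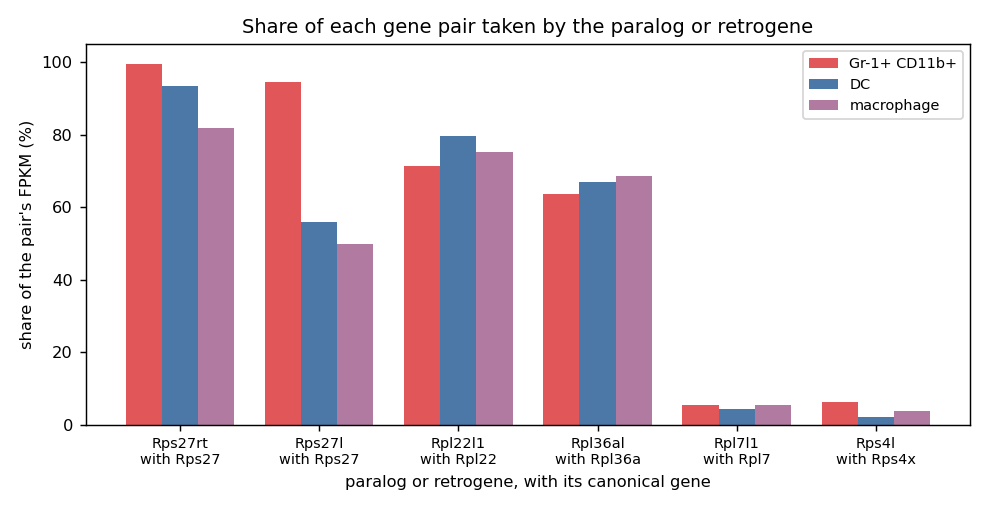
Share of 6 paralogs or retrogenes in the FPKM sum of each with its standard (canonical) gene, in percent (y axis), with 1 bar per library. Rpl22l1 and Rpl36al lie between 63.7% and 79.5% in every library, and the share of Rps27l spreads the most, at 94.4%, 55.8% and 49.7%.

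The genes of the set share features that the choice by symbol did not use. They lie on 19 chromosomes, 14 of them on chromosome 7. A small nucleolar RNA gene overlaps 30 members on the same strand (34.5%). Of 21951 coding genes 259 (1.18%) contain such a gene whole, which is a stricter rule than overlap. These RNAs are cut from introns and guide the modification of ribosomal RNA. In the windows from 250 bases before to 50 after the start, the ETS motif CCGGAAG, searched on both strands, occurred in 26 of 66 members (39.4%) against 12.9% of the protein-coding genes with a window. The YY1 core AAGATGG occurred in 15.2% against 7.18%, the Sp1 box GGGCGG in 60.6% against 49.2% and the TATA motif TATAAA in 10.6% against 14.8%, with the same genes as reference. A match describes these letters alone and is not a binding site.

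Genes that work beside the ribosome were compared from lists chosen for their roles. Over all genes 6.28% were lower in the Gr-1+ CD11b+ library than in DC as deposited, 10.4% with equal sums and 2.04% with median ratios. Against macrophages the shares were 3.41%, 3.25% and 1.44%, and the lists are given beside these shares. Mitochondrial ribosomal proteins, which serve the separate ribosome of that organelle, had a median of -1.51 over 77 genes in the Gr-1+ CD11b+ library minus DC, with 15 lower by the size rule and 1 higher. The number lower was 27 with equal sums and 0 with median ratios or 75th percentiles. Their median was -1.06 against macrophages and 0.35 in DC minus macrophages. Each of these lay on the same side of all genes as the cytosolic set and nearer to them. The side of the median held under all 4 scalings, which shift the list and all genes nearly alike and so could hardly change it.

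Elongation factors lay near the ribosomal proteins, with a median of -1.94 in the Gr-1+ CD11b+ library minus DC and 4 of 8 lower by the size rule; against macrophages the median was -1.16 and 0 were lower. With equal sums 5 of the 8 were lower than in DC, and with median ratios or 75th percentiles 1. Eef1a1, which delivers aminoacyl-tRNA, had 587 FPKM in the Gr-1+ CD11b+ library, 2430 in DC and 2046 in macrophages, and Eef2, which moves the ribosome along the mRNA, had 120, 486 and 278 FPKM. Of 27 initiation factors, 11 were lower, with a median of -1.94, among them Eif3e at 19.01, 128 and 109 FPKM. This count was 16 with equal sums and 0 with either other scaling. Against macrophages 4 of the 27 were lower as deposited and with equal sums, and 0 with either other scaling. Eif1, which guards start codon choice, was not lower, at 1363, 1109 and 912 FPKM. Eif5a (578, 753 and 749 FPKM) and Tpt1 (502, 849 and 850 FPKM) also differed by less than 1 on the log2 scale in each comparison.

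Factors that build ribosomes had medians below 0 as deposited. Of 24 biogenesis genes 10 were lower in the Gr-1+ CD11b+ library than in DC, with a median of -1.92. Against macrophages 2 were lower, on a background of 3.41% of all genes, and 0 with median ratios or 75th percentiles. Against DC the count was 17 with equal sums and 2 with median ratios or 75th percentiles. Nop56, a core protein of nucleolar RNA-modifying particles, had 16.6 FPKM in the Gr-1+ CD11b+ library, 151 in DC and 64.8 in macrophages, and Npm1, the main nucleolar chaperone, had 68.8, 286 and 201 FPKM. Of 10 genes of RNA polymerase I, which transcribes ribosomal RNA, 3 were lower than in DC, with a median of -1.42, and 0 with median ratios or 75th percentiles. In the 3 lists of factors the medians of DC minus macrophages were 0.60 for elongation, 0.39 for initiation and 0.59 for biogenesis, and no gene of these lists passed the size rule there.

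Of 19 genes that control ribosome production, 15 lay below 0 and 4 above it in each comparison of the Gr-1+ CD11b+ library. Myc, a transcription factor that drives ribosomal protein and ribosomal RNA genes, had 10.5 FPKM in the Gr-1+ CD11b+ library, 75.3 in DC and 23.3 in macrophages, a difference of -2.74 against DC. Mxd1, which competes with Myc for its partner Max and represses the same sites, had 1257 FPKM in the Gr-1+ CD11b+ library, 76.1 in DC and 217 in macrophages, with differences of 4.03 and 2.53. Eif4ebp1, the translation repressor that mTOR switches off, had 182, 38.9 and 91.7 FPKM, a difference of 2.196 against DC. Mtor (-0.69) and Larp1 (-1.53) did not pass the size rule against DC. Over the 19 control genes the median was -1.33 against DC and -0.52 against macrophages. Against DC 1 was lower and 2 higher as deposited, on a background of 6.28% and 3.65% of all genes. These counts were 2 and 1 with equal sums, 0 and 3 with median ratios and 1 and 2 with 75th percentiles.

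Of 5 genes for proteins bound to the ribosome or made as fusions, 2 passed the size rule as lower than in DC, and 0 with median ratios or 75th percentiles. Gnb2l1, the scaffold RACK1 of the small subunit, had 108 FPKM in the Gr-1+ CD11b+ library, 501 in DC and 350 in macrophages, with a difference of -2.21 against DC. Fau, the fusion that encodes small-subunit protein S30, had 599, 1012 and 855 FPKM with differences of -0.76 against DC and -0.51 against macrophages, both more than 1 above the members' medians of -2.17 and -1.60. Rps27a, a fusion with ubiquitin and a member of the set, had 251, 809 and 615 FPKM, with -1.69.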

How the data were processed

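RNA of 3 sorted populations, 1 library each, was read from full-length SMART-Seq HT cDNA with Nextera libraries, per the labels' protocols. FPKM tables, 1 per library, are what the authors deposited. Per the submitters' processing notes, the tools were Cufflinks 2.2.1, SAMtools 0.1.19, TopHat2 2.0.13 and Bowtie2 2.2.3, and the build was mm10; no role, order or annotation is stated. Strand is not stated, and 21 members overlap another coding gene.

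The members and lists were chosen with earlier results of these data known. Differences are of log2(FPKM + 1) from the deposited values. Python 3.11.15, NumPy 2.4.6, pandas 2.3.3, SciPy 1.17.1 and Biopython 1.88 were used. Depth was taken from steps of FPKM times length less 200 nt in genes with 1 transcript over 800 nt. Of 1326, 1094 and 1184 low values in Gr-1+ CD11b+ cells, DC and macrophages, 84.8%, 84.6% and 83.4% lay within 0.2 of a whole fragment (40% by chance). These fragments are amplified and cover counting error only.

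Values are given for the 10 members with the highest mean, the 5 with the largest difference each way per comparison, departures, paralogs, the P stalk, Rpsa and members under 1 FPKM, and, from other lists, the 3 highest and genes past the size rule, of which some are counted only. Rpl5, Rpl8, Rps3, Rps6, Rpl11, Rps27a and Rps14 were added after their values were seen. Some named by this rule are only counted here. Coding 50-mers came from GENCODE M21.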

Additional observations from a re-analysis of the deposited data

How the results depend on the processing

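No paired analysis was possible because each population had 1 library, and for the same reason no library was left out. The 3 comparisons share libraries and are not independent. Low members of the Gr-1+ CD11b+ library, the shallowest, rest on few fragments.

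The members' median kept its sign in each comparison under every alternative run. For Gr-1+ CD11b+ cells minus DC it was -2.18 with a pseudocount of 0.1, -2.10 with 10, -2.54 with equal sums, -1.40 with median ratios and -1.41 with equal 75th percentiles. It was -2.17 over all 87 members, -2.21 over the 76 with a mean of 100 FPKM or more, -2.03 over the 16 with 50% or fewer of their coding 50-mers shared and -2.18 over the 79 above the level of silent genes in every library; the last 2 selections were chosen after seeing the data. Against macrophages it was -1.61 with a pseudocount of 0.1, -1.52 with 10, -1.58 with equal sums, -1.02 with median ratios, -1.003 with 75th percentiles and -1.59 over the 16 members. For DC minus macrophages it was 0.58 with a pseudocount of 10, 0.98 with equal sums, 0.39 with median ratios, 0.42 with 75th percentiles, 0.60 over the 76 members, 0.43 over the 16 and 0.60 over the 79.

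The counts moved more. Of members lower in the Gr-1+ CD11b+ library than in DC, 5 were left with median ratios, 5 with 75th percentiles and 3 with a log2 limit of 3, and 8 of the 16 with few shared 50-mers were lower. With a floor of 1 FPKM, 1 member was higher. Against macrophages 77 were lower with a log2 limit of 1, 0 of the 16 members and 1 of the 79. With a limit of 1, 6 members were higher in DC than in macrophages. The shares of all genes under the changed limits and floor are not given here. These counts therefore cannot be set against a background, and nothing about the members is read from them.

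The median of the large subunit less that of the small was 0.11 for Gr-1+ CD11b+ cells minus DC, 0.08 against macrophages and -0.01 for DC minus macrophages. With a pseudocount of 0.1 the first was 0.10 and the next 0.073, with 10 they were 0.094 and 0.10, and over the 76 members 0.054 and 0.056. Over the 76 the last value reversed to 0.0059. The cause was not tested. The members' share of the FPKM sum was 3.29% in the Gr-1+ CD11b+ library, 14.5% in DC and 7.86% in macrophages without the 10 highest other symbols, and 2.36%, 13.1% and 6.49% over symbols of 300 nt or longer.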
